A study of Rattus norvegicus with 18 samples.

Results

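The translation initiation and elongation factors described here are the 61 genes, of 17337 in the files, whose symbols begin with Eif1 to Eif6, Eef1 or Eef2. They were chosen by name alone, and each had a single transcript and a single locus. All 61 passed the filter on low values (TPM of 1 or more in 3 or more libraries) that left 15144 genes to test. Levels are in TPM, the share of transcripts corrected for length, after scaling of each library to a common median ratio, and are written as scaled TPM.

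A ribosome begins work when the small subunit, carrying the initiator tRNA bound to eIF2, is brought to the cap of an mRNA by the eIF4 factors and eIF3, scans to a start codon under the control of eIF1 and eIF1A, and is joined by the large subunit with the help of eIF5 and eIF5B. Elongation then depends on eEF1A, which delivers aminoacyl-tRNA, and eEF2, which moves the ribosome along the mRNA. Cells set the rate of initiation mainly through phosphorylation of the alpha subunit of eIF2 and through the 4E-BP proteins that hold back the cap-binding factor eIF4E, and myelin-forming cells depend on the exchange factor eIF2B, whose mutation causes a disease of the white matter.

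Total RNA was sequenced from rat oligodendrocyte progenitor cells (OPCs), glial cells that give rise to myelinating oligodendrocytes, isolated by magnetic sorting. The 18 libraries formed 6 groups of 3: aged and neonate primary sorted cells, and aged and neonate cells grown on soft or stiff hydrogels coated with laminin, in medium with FGF and PDGF. For primary sorted cells the age is given only by a letter in the title, and the strain, the ages in time units and the stiffness values are not given in the sources used here. The labels do not state separate animals or cultures behind the replicates of a group. Every p-value therefore reflects the scatter among these libraries alone, and that scatter may be technical. In bulk RNA, fewer cells of a type and less RNA per cell cannot be told apart.

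The libraries were shallow, with 22200 to 105647 read pairs per library on transcripts other than ribosomal RNA and its repeats, if a pair covers 300 bases. Of the 61 genes, 11 had a mean under 1 read pair per library, 29 had 1 to under 5, 15 had 5 to under 20 and 6 had 20 or more (Eef1a1, Eef2, Eif4g3, Eif3b, Eif4b and Eif4a1). Replicate 1 of each aged group covered 54.7% to 77.2% of olfactory receptor genes, against 0.251% to 39.2% in the other 15, and these 3 are called the broad libraries. The share was graded: aged soft replicates 2 and 3 came next at 39.2% and 30.8%, against 2.01%, 18.9% and 9.86% in neonate soft libraries. Leaving out the broad libraries therefore does not even out this share between ages on soft gels. The markers also moved with age: the summed level of 8 microglia markers was 1488 to 2701 scaled TPM in aged and 31.1 to 102 in neonate primary libraries, where Tmem119 was at 0, and that of 7 OPC markers was 67.3 to 172 and 728 to 855. On gels the microglia sum was 80.7 to 349 in aged and 0 to 18.2 in neonate libraries, with Cx3cr1, Aif1 and C1qa at 0 on both neonate gels, and the OPC sum was 61.2 to 429 in aged and 797 to 1570 in neonate libraries. The sum of 4 neuron markers was 0 to 48.8 in aged and 74.4 to 211 in neonate primary libraries, and the ages overlapped on soft gels. The sum of 4 astrocyte markers was 61.7 to 84.8 in aged and 34.7 to 56.9 in neonate primary libraries. On gels it was 2.87 to 81.7 in aged and 97.2 to 246 in neonate libraries. The sum of 3 endothelial markers was 24 to 97.3 in aged and 1.24 to 19.7 in neonate primary libraries. On gels that sum was 10.1 to 38.6 in aged and 0 to 6.33 in neonate libraries. The part of these differences in the results below was not tested, and each age comparison below carries them.

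The family's levels were higher than those of genes at large. The median of its members' mean levels was 18.8 scaled TPM, against 5.83 over all genes tested, and 19.7% of its values were 0, against 41.4%. Eef1a1, the main eEF1A gene, had the highest mean over 18 libraries at 350.2 scaled TPM, followed by Eef2 (199), the RNA helicase Eif4a1 (125), Eef1g (111) and the 4E-BP gene Eif4ebp3 (103). At the other end, Eif4ebp1, Eif2s3y, Eef1e1 and Eif3m were above 0 in 3 or 4 libraries only. Altogether 23 members were above 0 in every library and 10 were at 0 in at least 9. Because a core eIF3 subunit such as Eif3m was listed at 0 in 15 libraries, an entry of 0 cannot be read as silence, and genes that reach 0 are given by library, in the order of the replicate numbers.

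**Figure D1:**
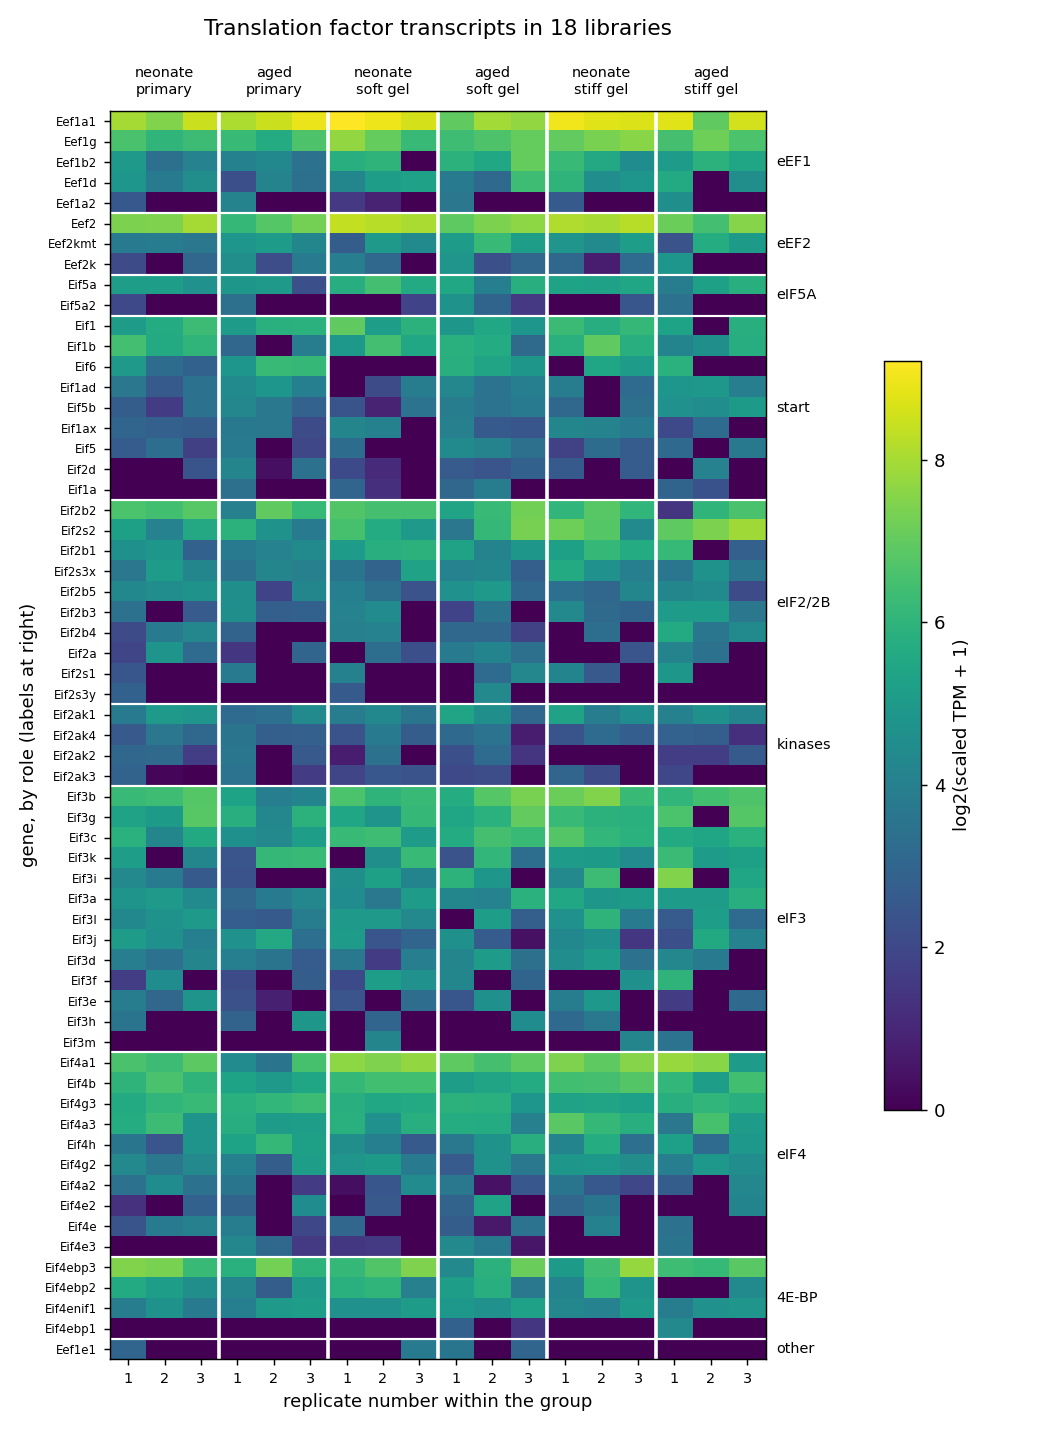
Level of each of the 61 genes (y axis, grouped by role) in each of the 18 libraries (x axis), as log2(scaled TPM + 1) in colour. The top line, Eef1a1, is bright in every library, while dark cells mark values of 0, which are most frequent in aged stiff replicate 2, where 37 of the 61 genes were above 0.

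Translation factor mRNAs can carry a run of pyrimidines that begins with C at the very start of the transcript, the 5′ terminal oligopyrimidine motif through which mTOR and LARP1 control their use. Sequences around the annotated start were found in RefSeq (GRCr8) for 55 of the 61 genes, 54 of them by symbol. A run of at least 5 pyrimidines starting with a C within 5 bases of the start was found in 13 of the 55 (23.6%) and in 17.0% of all 33469 promoters. Eef2 and Eef1g, among the members with the highest levels, had runs of 2 bases only, and Eef1d, Eif4b and Eif3e had no entry. The count depends on the annotated starts and is not a list of the members with the motif. Windows of 30 bases centred on the start (minus 15 to plus 15) follow for 4 of the 13, eEF1 subunit genes and eIF3 genes that cover high and low levels, with the run in capitals as far as it lies in the window.
Eef1a1, chr8:88225055-88225084, minus strand: tcgccttggacgttCTTTTTCgcaacgggt
Eef1b2, chr9:72074076-72074105, plus strand: tttccggccggtcccggCCCTTTTTCTCCC
Eif3f, chr1:172369047-172369076, plus strand: tcacgcccttccgttctagCCTCTCTCTTT
Eif3m, chr3:111897179-111897208, minus strand: cgtaacaccgtgtggtaccgCTCCTTTTCC
The search required the run to begin within 5 bases of the annotated start, and in Eef1b2, Eif3f and Eif3m it begins downstream of that start. The levels of these 4 genes ranged from the highest of the family (Eef1a1) to one of the lowest (Eif3m, 2.5 scaled TPM). Of 3 motifs searched on both strands in the 250 bases before the start, CCGGAAG was found in 19 of 55 members (34.5%) and 7.27% of all promoters, CACGTG in 9 (16.4%) and 5.59%, and TATAAA in 3 (5.45%) and 12.9%. These matches describe the letters only and are not evidence of binding. The 33469 promoters are more than the 17337 genes in the files and were not limited to the 15144 genes tested. The shares of members and of all promoters therefore come from unlike sets.

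Across the 7 comparisons of groups and 2 interactions, limma called 3 members. In primary cells Eif1b was lower with age, 1 member of 61 (1.64%), where 2.6% of all genes tested were called, 0.66% in that direction. On soft gels Eif6 was higher with age, again 1 of 61, against 1.56% of all genes (1.37% higher). In aged cells Eif3b was higher on gels than in primary cells, 1 of 61 against 1.11% of all genes (0.337% higher). None of the members was called between ages on stiff gels (2.18% of all genes called), between soft and stiff gels in aged cells (0.0792%) or neonate cells (0%), or between gels and primary cells in neonates (0.099%). Neither interaction called a member, that of gel and age (0.0066%) or that of culture and age (0.112%). At an unadjusted p under 0.05 those 6 comparisons had 8, 4, 1, 1, 2 and 5 members in the same order, where 13.6%, 10.9%, 2.89%, 4.7%, 5.24% and 5.57% of all genes passed. The 3 with a call had 6 (12.7% of all genes), 5 (16.6%) and 9 (9.74%). Groups did not overlap for 12 members between primary ages (16.1% of all genes), 10 between ages on soft (19.7%) and 11 on stiff gels (10.4%), 3 and 2 between gels in aged (8.32%) and neonate cells (6.33%), and 3 and 6 between gels and primary cells in aged (3.74%) and neonate cells (3.63%). The share of members called was thus near the background in the comparisons that called 1.

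Eif1b is a close relative of Eif1, the factor that guards the choice of start codon. It was at 7.32, 0 and 14.1 scaled TPM in aged primary libraries and at 87.5, 48.5 and 63.9 in neonate ones (rn6, chromosome 8, 129158112 to 129160726). The aged libraries all lay below the neonate ones, and the difference was -3.71 on the log2(scaled TPM + 1) scale (SE 0.87, 95% interval -5.50 to -1.93; limma, adjusted p = 0.0165). The call was lost without aged primary replicate 2 (limma, adjusted p = 0.141), neonate primary replicate 1 (0.0815) or neonate primary replicate 3 (0.0610), and with a pseudocount of 0.1 (0.0611) or no filter (0.0546). On gels the gene was at 57.5, 50.4 and 8.09 in aged soft, 16.8, 23 and 53.2 in aged stiff, 29.6, 87.8 and 44.2 in neonate soft, and 56.5, 125 and 54.6 in neonate stiff libraries. No age difference was called there (limma, adjusted p = 0.691 on soft and 0.542 on stiff gels), and the ages overlapped on soft gels but not on stiff ones. Whether culture changed the age difference was tested directly, and the interaction of 2.67 was not called (limma, adjusted p = 0.733). Its mean of 3.97 read pairs per library makes the level coarse, and reads can be shared with Eif1. Eif1 itself was at 33.4, 57.5 and 58.4 in aged primary libraries and at 33, 50.7 and 78.1 in neonate ones, which overlap. The 250 bases before the start of Eif1b hold CCGGAAG and CACGTG, shown in capitals because this is the only member called between primary ages.
Eif1b, chr8:129080908-129081157, GRCr8, plus strand: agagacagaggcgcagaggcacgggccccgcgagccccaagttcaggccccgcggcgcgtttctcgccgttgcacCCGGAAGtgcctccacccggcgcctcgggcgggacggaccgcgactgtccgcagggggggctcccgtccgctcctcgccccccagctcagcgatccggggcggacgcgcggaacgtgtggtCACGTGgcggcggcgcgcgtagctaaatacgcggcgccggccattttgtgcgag

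Eif6, which keeps the large ribosomal subunit from joining too early, differed between ages on soft gels. It was at 54.2, 40.3 and 28.2 scaled TPM in aged soft libraries and listed at 0 in all 3 neonate soft libraries (rn6, chromosome 3, 151356867 to 151363115). The fitted difference, which depends on the pseudocount of 1, was 5.34 (SE 1.31; limma, adjusted p = 0.0326). The call was lost without any 1 of the 6 soft gel libraries (limma, adjusted p = 0.0573 to 0.115), with a pseudocount of 0.1 (0.0552) and with no filter (0.106), and kept without the broad libraries (0.0333). That last fit still held aged soft replicates 2 and 3, which covered 39.2% and 30.8% of olfactory receptor genes, against 2.01% to 18.9% in neonate soft libraries. The part of this share in the call was not tested. On stiff gels the levels were 58, 0 and 0 (aged) and 0, 41.6 and 33.1 (neonate), so each age had libraries at 0. In primary cells they were 28, 75.5 and 69 (aged) and 30.6, 8.65 and 6.36 (neonate). The interaction of gel and age for Eif6 was 6.88 with an unadjusted p of 0.000943, and it did not pass over all genes (limma, adjusted p = 0.608). The gene had a mean of 3.17 read pairs per library. Its promoter window, shown because this is the member called on soft gels, holds CCGGAAG.
Eif6, chr3:164791411-164791660, GRCr8, minus strand: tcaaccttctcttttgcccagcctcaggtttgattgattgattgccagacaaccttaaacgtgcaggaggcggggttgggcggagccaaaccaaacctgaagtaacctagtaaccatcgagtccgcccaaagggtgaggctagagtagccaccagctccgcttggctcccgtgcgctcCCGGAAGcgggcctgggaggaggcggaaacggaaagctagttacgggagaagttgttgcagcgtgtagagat

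**Figure D2:**
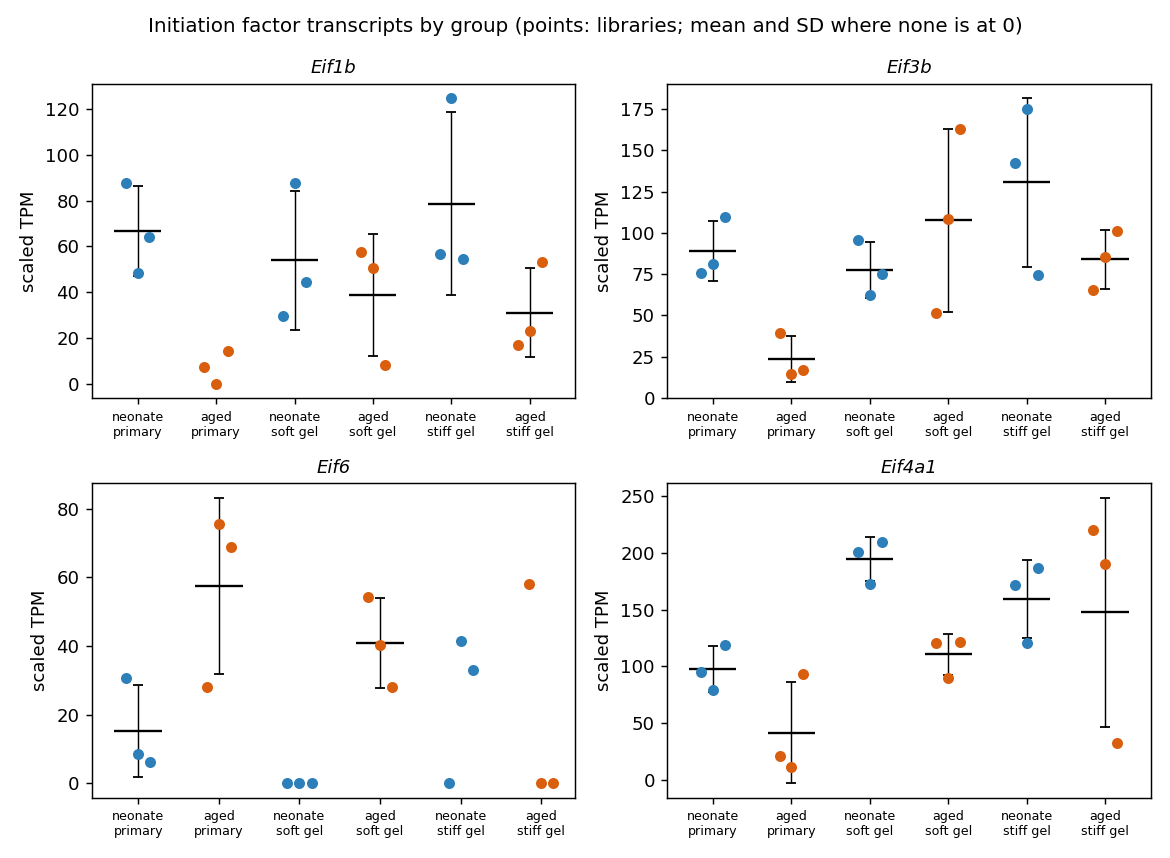
Scaled TPM (y axis, linear) of the 3 called genes and of Eif4a1 by group (x axis). Points are libraries (orange aged, blue neonate), and bars give the mean and SD of 3 libraries where none is at 0. Eif3b is at 14.3 to 39.7 in aged primary libraries and at 51.6 or above in each other library, and Eif6 is at 0 in all 3 neonate soft libraries.

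Other start codon and scanning factors missed the adjusted threshold. Eif5b, the GTPase that joins the subunits, was at 24.6, 22.1 and 31.4 scaled TPM in aged stiff and 7.49, 0 and 9.49 in neonate stiff libraries, without overlap (difference 2.58; limma, adjusted p = 0.218). Eif1ad was at 27.8, 29.2 and 14.2 in aged stiff and 13.7, 0 and 8.42 in neonate stiff libraries (2.19; limma, adjusted p = 0.332). Eif1ax, which encodes the scanning factor eIF1A, was at 3.05, 8.33 and 0 against 17.8, 16.4 and 12.5 in the same comparison (-2.29; limma, adjusted p = 0.347). Reads of Eif1ax may be shared with Eif1a. Eif5, which makes eIF2 hydrolyse its GTP, was at 19.9, 16.2 and 9.59 in aged soft and 8.69, 0 and 0 in neonate soft libraries (2.87; limma, adjusted p = 0.230). In each of these 4 the groups did not overlap.

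No gene of eIF2, which brings the initiator tRNA, or of its exchange factor eIF2B was called in any comparison as fitted. Eif2b1, an eIF2B subunit, was at 71.8, 0 and 6.13 scaled TPM in aged stiff and 36.5, 69.3 and 50.5 in neonate stiff libraries, and the first aged library, a broad one, lay above all others. The difference was -2.68 (limma, adjusted p = 0.205), and it passed without the broad libraries (-4.28; limma, adjusted p = 0.00927) or without aged stiff replicate 1 alone (-4.27; 0.00602). Eif2s1, the alpha subunit that stress kinases phosphorylate, was above 0 in 8 of 18 libraries, and at most 28.6 scaled TPM (aged stiff replicate 1). Eif2s2, the beta subunit, was the best covered of the eIF2 subunits, at 121, 169 and 239.8 in aged stiff and 11.7, 69.3 and 158 in aged soft libraries, which overlap (-1.71; limma, adjusted p = 0.453). Among the eIF2B subunits Eif2b2 had the highest mean, 81.3 scaled TPM, and Eif2b4 the lowest, 9.93. Eif2b3 was at 2.58, 10.8 and 0 in aged soft and 33.3, 33.7 and 11.7 in aged stiff libraries, and the groups did not overlap (-2.83; limma, adjusted p = 0.374). Eif2b4 was at 48.3, 11.4 and 20.2 in aged stiff and 0, 9.17 and 0 in neonate stiff libraries, without overlap (3.44; limma, adjusted p = 0.182). Eif2b5, the catalytic subunit, was 14.4 ± 10.6 in aged and 21.8 ± 2.96 in neonate primary libraries (SD, n = 3), a difference inside the spread (limma, adjusted p = 0.698).

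None of the 4 kinases that phosphorylate eIF2 alpha was called, and their means ran from 2.83 (Eif2ak3) to 19.7 scaled TPM (Eif2ak1). The locus of Eif2ak1, the heme-regulated kinase, overlaps Ankrd61 on the other strand and no strand option was used, so the pair cannot be told apart. Eif2ak4 (GCN2), which senses uncharged tRNA, was above 0 in all 18 libraries and was 7.6 ± 2.64 in aged primary libraries beside 8 ± 3.33 in neonate ones (SD, n = 3; limma, adjusted p = 1). Eif2ak2 (PKR), which senses double-stranded RNA, was at 0 in all 3 neonate stiff libraries and at 2.21, 2.23 and 5.07 in aged stiff ones (limma, adjusted p = 0.502). Eif2ak3 (PERK), the kinase of the endoplasmic reticulum, was at 0 in 6 libraries and at most 10.3 in any.

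Of the eIF3 complex, the scaffold on the small subunit, 13 genes were measured and Eif3b was the member called. In aged primary libraries Eif3b was at 39.7, 14.3 and 17 scaled TPM, and on gels aged cells had 51.6, 109 and 163 (soft) and 65.5, 85.6 and 101 (stiff). All 6 aged gel libraries lay above all 3 aged primary ones, and the difference was 2.02 (SE 0.50, 95% interval 0.99 to 3.05; limma, adjusted p = 0.0431; rn6, chromosome 12, 16285731 to 16310190). In neonates the gene was 89.1 ± 18.3 in primary, 77.8 ± 16.9 in soft and 131 ± 51.2 in stiff gel libraries (SD, n = 3), and the gel difference was 0.14 (limma, adjusted p = 1). The interaction of 1.88 was not called (limma, adjusted p = 0.665). Between primary ages the aged libraries, at 23.6 ± 13.9 (SD, n = 3), all lay below the neonate ones by -1.99 (limma, adjusted p = 0.0635). That difference shares the aged primary libraries with the culture comparison, and without the broad libraries it passed (limma, adjusted p = 0.0144). The culture call was lost without either of aged primary replicates 2 and 3 (limma, adjusted p = 0.293 and 0.223), aged soft replicates 2 and 3 (0.0779 and 0.0967), aged stiff replicate 3 (0.0603) and 8 neonate libraries (0.0510 to 0.0570), and under a block of replicate numbers (0.0510). It was also lost with a pseudocount of 0.1 (limma, adjusted p = 0.0828), no scaling (0.178) and only the groups compared (0.148). With a mean of 26.4 read pairs Eif3b was among the better covered members. In the same comparison, where 1.11% of all genes were called, 3 of 8 microglia markers (C1qc, Csf1r and Cx3cr1) were lower on gels, and 1 of 7 OPC markers (Olig1) and 1 of 4 markers of mature oligodendrocytes (Mog) were higher. The part of these cell types in this result was not tested. The promoter window of Eif3b holds CACGTG, as that of Eif1b does.
Eif3b, chr12:19334769-19335018, GRCr8, minus strand: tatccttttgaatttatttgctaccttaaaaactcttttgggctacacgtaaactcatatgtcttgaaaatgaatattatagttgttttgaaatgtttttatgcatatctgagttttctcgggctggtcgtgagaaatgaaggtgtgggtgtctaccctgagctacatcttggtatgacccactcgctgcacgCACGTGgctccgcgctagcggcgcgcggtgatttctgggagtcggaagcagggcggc

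Other eIF3 genes missed the threshold. Eif3c was at 24, 19.5 and 34.1 scaled TPM in aged primary libraries, below all 6 aged gel libraries (42.7 to 90.4; difference 1.19; limma, adjusted p = 0.430). Eif3a, the largest subunit, was 13 ± 5.5 in aged primary, 30.9 ± 24.2 in aged soft and 39.5 ± 12.7 in aged stiff libraries (SD, n = 3; limma, adjusted p = 0.472), with overlap. Eif3e was at 3.86, 0.754 and 0 in aged primary libraries and at 13.7, 7.18 and 26.5 in neonate ones, without overlap (-2.86; limma, adjusted p = 0.368). Eif3h and Eif3m were at 0 in 11 and 15 libraries. Of the 61 family members 9 had an unadjusted p under 0.05 between aged gels and aged primary cells, all 9 higher on gels (14.8%, against 3.49% of all genes higher), and 4 of these were eIF3 genes, Eif3a, Eif3b, Eif3c and Eif3i. The other 5 were Eef1b2, Eif1b, Eif2b4, Eif2s2 and Eif4a1, and some of these names were chosen after the values were seen.

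The eIF4 factors bind the cap and unwind the leader of the mRNA. Eif4a1, the helicase, was at 20.7, 10.8 and 93.1 scaled TPM in aged primary, 120.5, 89.7 and 122 in aged soft and 220.5, 190.5 and 32.4 in aged stiff libraries. One aged primary library overlapped the gel libraries, and the difference of 1.95 was not called (limma, adjusted p = 0.125). It passed without aged primary replicate 3 (2.80; limma, adjusted p = 0.0252) or aged stiff replicate 3 (2.40; 0.0203). It was 97.5 ± 20.2 in neonate primary libraries (SD, n = 3), against which the aged difference of -1.75 was not called (limma, adjusted p = 0.220). Its paralog Eif4a2 was lower, with a mean of 7.77 over 18 libraries, and reads of the 2 genes may be shared. Eif4e, the cap-binding protein, was above 0 in 11 libraries and at most 15.8 in any. Eif4e3, a relative of Eif4e, was at 18.3, 7.49 and 1.95 in aged primary and at 0 in all neonate primary libraries (limma, adjusted p = 0.269). Eif4h, which stimulates the helicase, was 48.8 ± 17.7 in aged and 13.9 ± 11.3 in neonate primary libraries (SD, n = 3), without overlap (1.99; limma, adjusted p = 0.293). Eif4b, another partner of the helicase, was 37.2 ± 6.44 and 73.2 ± 18.5 in these groups, also without overlap (-0.94; limma, adjusted p = 0.523). On soft gels Eif4b was at 35.4 to 49.8 in aged and 68.9 to 85.7 in neonate libraries. On stiff gels it was at 34.8 to 84.7 and 85.3 to 106.6, so neither gel showed overlap, and neither difference was called. Eif4g3, a scaffold, ran from 27.9 to 80 over all 18 libraries. Its largest difference between ages was 0.60 on stiff gels (limma, adjusted p = 0.655). There it was at 55.2 to 65.5 in aged and 35.8 to 41.1 in neonate libraries, without overlap.

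The 4E-BP proteins compete with the scaffold for eIF4E when mTORC1 is inactive. Eif4ebp2, the form prominent in brain, was at 0, 0 and 20.3 scaled TPM in aged stiff libraries, 35.4, 54 and 12.1 in aged soft and 17, 71.3 and 26.6 in neonate stiff libraries. Aged stiff replicate 3 lay inside the range of both other groups. The difference was -3.57 between ages on stiff gels (limma, adjusted p = 0.0583) and 3.42 between soft and stiff gels in aged cells (limma, adjusted p = 0.199), and both use the same aged stiff libraries. Without aged stiff replicate 3 Eif4ebp2 was called in both (limma, adjusted p = 0.00170 and 0.0143), and the gel and age interaction of 3.16 was not called (limma, adjusted p = 0.935). Eif4ebp1 was above 0 in 3 libraries, all of them aged cells on gels. Eif5a, whose hypusine-bearing product helps peptide bonds form at difficult sequences, was 20.6 ± 14.6 in aged and 31.3 ± 5.8 in neonate primary libraries and 62.9 ± 21.4 in neonate soft ones (SD, n = 3), with limma adjusted p of at least 0.577 in every comparison.

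The elongation factors carried much of the family's transcripts. Eef1a1 and Eef2 together made up 11.8% to 34.3% of the summed scaled TPM of the 61 genes in a library. Eef1a1 was at 124, 244 and 214 scaled TPM in aged soft and 597, 505 and 391 in neonate soft libraries, without overlap. The difference was -1.39 (SE 0.48; limma, adjusted p = 0.150), and with voom it passed (limma, adjusted p = 0.00669). In primary cells it ran the other way, with 375 ± 116 in aged primary and 261 ± 90.7 in neonate primary libraries (SD, n = 3), which overlap (limma, adjusted p = 0.698). In neonates the difference of Eef1a1 between gels and primary cells was 0.91 (limma, adjusted p = 1), and it turned to -0.23 with no scaling. Its interaction of culture and age was -1.59 (limma, adjusted p = 0.650). Processed copies of Eef1a1 could take or give reads, and how reads with several matches were treated is not given in the sources used here. Eef1a2, the neuron and muscle form, was above 0 in 7 libraries, 6 of them the first replicates.

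Eef2 levels of aged libraries lay below those of neonate libraries in primary cells and on both gels, without a call in any of the 3. It was at 139.7, 87.1 and 188 scaled TPM in aged stiff and 279, 259 and 303 in neonate stiff libraries, without overlap (-1.08, SE 0.47; limma, adjusted p = 0.304). It was at 121, 169.6 and 202 against 329.6, 299.98 and 266 on soft gels, again without overlap (-0.88; limma, adjusted p = 0.335). The primary libraries gave 113 ± 43.9 (aged) and 199 ± 48.3 (neonate; SD, n = 3), without overlap (-0.86; limma, adjusted p = 0.479). Soft and stiff gels differed by 0.28 in aged cells (95% interval -0.67 to 1.24) and 0.09 in neonate cells (-0.87 to 1.04). Eef2k, the kinase that inactivates eEF2, was at 0 in 4 libraries and at most 27.7 in any, and Eef2kmt overlaps Alg1 on the other strand.

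Of the exchange factor subunits of eEF1, Eef1b2 was at 15.6, 18.7 and 9.78 scaled TPM in aged primary libraries, below all 6 aged gel libraries, which were at 32.3 to 132. The difference was 1.89 (limma, adjusted p = 0.481). Eef1g was 74.9 ± 24.1 in aged primary and 79.6 ± 15.3 in neonate primary libraries (SD, n = 3; limma, adjusted p = 0.945), and Eef1d was at 0 in 1 library, aged stiff replicate 2.

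**Figure D3:**
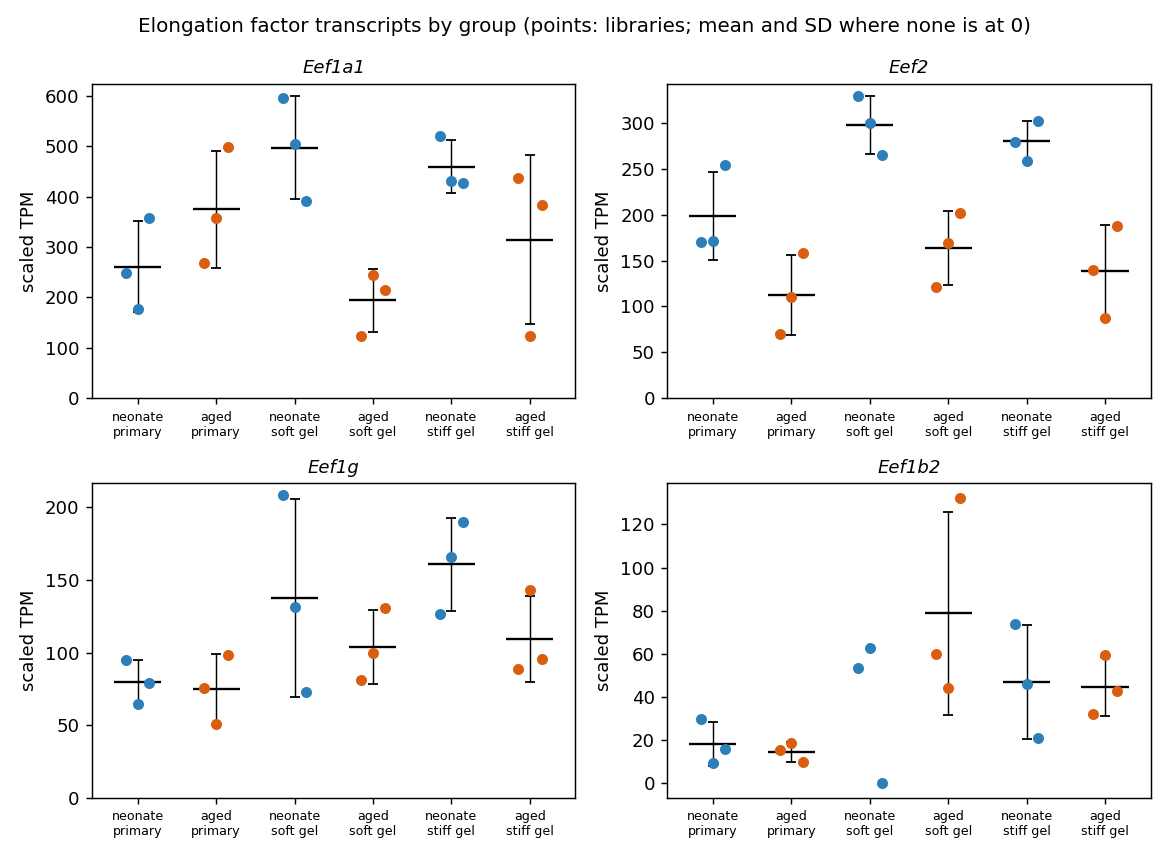
Scaled TPM (y axis, linear) of 4 elongation factor genes by group (x axis). Points are libraries (orange aged, blue neonate), and bars give the mean and SD of 3 libraries where none is at 0. Eef2 lies at 70.3 to 202 in the 9 aged libraries and at 170.5 to 329.6 in the 9 neonate libraries.

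Most of the 61 genes lay below the median of all genes in the age comparisons. The family median relative to the median of all genes tested was -0.90 in primary cells, -0.58 on soft and -0.85 on stiff gels, and 47, 40 and 46 of 61 members lay below it. Between replicates of a group, the family's median level minus that of all genes had a pooled SD of 1.09 per library. That spread exceeds the size of each of these relative medians. These numbers describe the list and carry no test, and the part of the family's higher level and fewer values of 0 in them was not tested. The median of all genes was itself 0.69, 0.86 and 0.49, so the family's own median differences were -0.21, 0.28 and -0.36. Without the broad libraries the relative medians were -0.48, -0.24 and -0.41, and with quantile normalization, where the median of all genes was near 0, they were -0.95, -0.44 and -0.85. Among roles, the group of eIF2 and eIF2B genes had the lowest relative median between primary ages, -1.34 with 9 of 10 below. That group also held Eif2a, which is not a subunit gene of either. The eIF3 genes had -1.16 with 11 of 13 below. The start codon factors had 0.33. Soft minus stiff gave relative medians of -0.29 in aged and -0.25 in neonate cells, the former 0.07 with quantile normalization, and the family's own medians were 0.30 and -0.23. Gels minus primary gave relative medians of 0.05 in aged and 0.14 in neonate cells, the latter -0.15 with no scaling. The summed level of the family was 1668 ± 228 scaled TPM in aged and 1932 ± 181 in neonate primary, 2049 ± 327 (aged) and 2507 ± 237 (neonate) on soft gels, and 2199 ± 385 (aged) and 2677 ± 185 (neonate) on stiff gels (SD, n = 3).

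**Figure D4:**
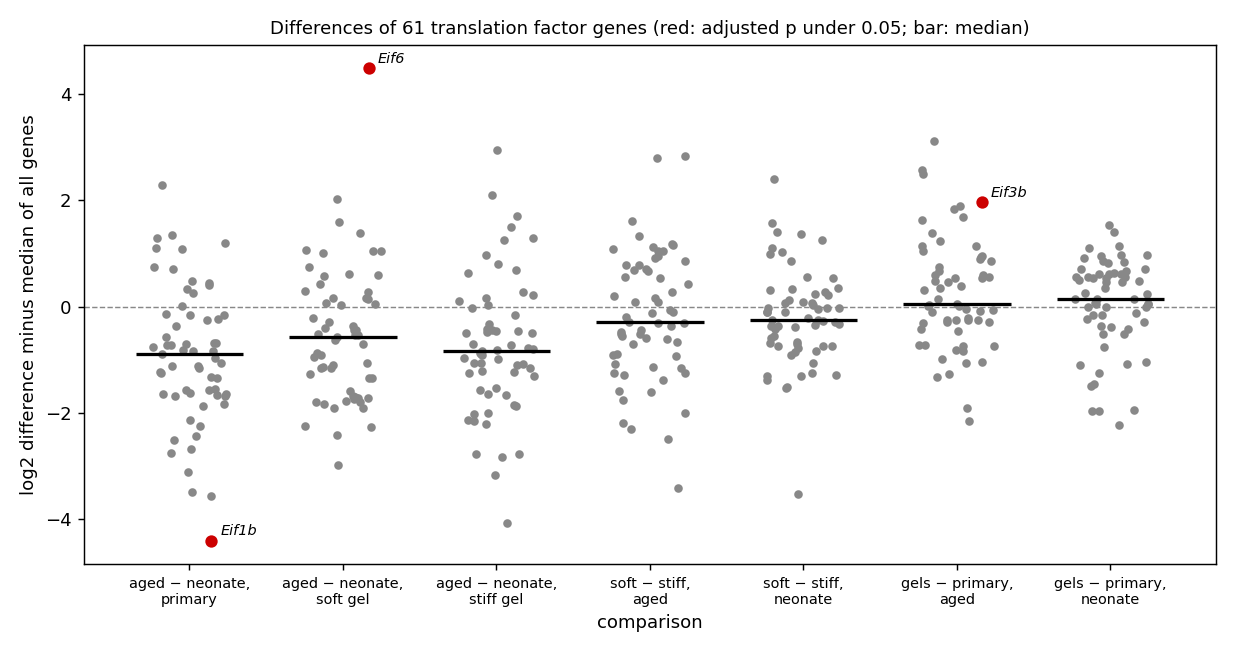
Differences of the 61 genes (points) in 7 comparisons (x axis), each as log2(scaled TPM + 1) difference minus the median of all genes tested (y axis). Black bars are family medians, and the 3 red points are the genes called by limma. The medians of the 3 age comparisons lie between -0.90 and -0.58, with members on both sides of 0.

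Other genes of the pathway were counted from lists chosen by role. Of 13 genes of mTORC1 and the MNK kinases, 1 was called lower between ages on stiff gels, where 2.18% of all genes were called. It was Akt1s1, an inhibitory subunit of mTORC1. It was at 28.2, 50.9 and 25.5 scaled TPM in neonate stiff libraries and at 0 in all aged stiff ones (limma, adjusted p = 0.00893). Of 14 targets of the integrated stress response and phosphatase subunits, 1 was called higher between ages on soft gels (1.56% of all genes called), the transcription factor Atf3. It was at 23.3, 44 and 26.3 in aged soft libraries and at 0 in all neonate soft ones (limma, adjusted p = 0.0105). Atf4, whose translation rises when eIF2 is phosphorylated, was 123 ± 86.7 and 42.6 ± 27.3 in these groups (SD, n = 3; limma, adjusted p = 0.202), with the third neonate library lowest at 13.5. Of 8 mitochondrial translation factors, 1 was called lower on aged gels than in aged primary cells (1.11% of all genes called), Gfm2, a recycling factor. It was at 65.4, 195 and 113 in aged primary libraries, 10.5, 3.14 and 19.6 on soft gels, and 0, 6.31 and 0.2 on stiff ones (limma, adjusted p = 0.00643). The microglia, OPC and oligodendrocyte markers named beside Eif3b were called in that comparison too, and their part in the level of Gfm2 was not tested. No other gene of these 3 lists was called in any of the 9 comparisons, and none of 8 termination and recycling factors, 4 poly(A) binding genes or 2 hypusination enzymes was.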

How the data were processed

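Total RNA was sequenced in pairs of 150 bases after library preparation with a stranded kit for picogram inputs, per the labels' protocols. The submitters' processing notes name Trimmomatic, HISAT2, StringTie and Bowtie without roles, and only StringTie has a version, 1.3.2d per the file headers, which also give a UCSC rn6 annotation, annotated transcripts only and no strand option. The deposited unit is TPM per transcript, beside FPKM and coverage. The aligner settings and treatment of reads with several matches are not given in the sources used here.

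TPM was summed per gene and divided by median-of-ratios factors, and genes reaching a TPM of 1 in 3 libraries or more entered the tests. The model in limma 3.58.1 (R 4.3.3) had 6 group means of log2(scaled TPM + 1) and a variance trend, and was 2-sided, with Benjamini and Hochberg adjustment over all genes tested and a threshold of 0.05. For culture, the average over soft and stiff gels was compared with primary cells. Read pairs were estimated as coverage times length over 300 bases. The fit was tested on simulated data for the age comparison of primary cells. Only genes with a mean of 5 or more read pairs were changed there, so that check does not cover members below this depth. Alternatives changed 1 choice at a time: the pseudocount (0.1), the filter (none, or a TPM of 5), the scaling (none, or quantile normalization), the model (voom, array weights, a replicate block, fits of only the groups compared), and the libraries, with the broad libraries left out, and each library left out.

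Named members were those called, up to 6 per direction and comparison with an unadjusted p under 0.05 and no overlap, and a fixed set of role genes. Other members were named after their values were seen, for coverage, overlap or position in a role group. Members and lists were chosen with earlier results of these data known. Lists of astrocyte, mature oligodendrocyte, neuron and endothelial markers were also counted: between primary ages 0 of 4, 1 of 4 (lower), 2 of 4 (lower) and 0 of 3 were called. On stiff gels the astrocyte marker Gfap was called lower with age (limma, adjusted p = 0.0306). Replicate numbers were checked for pairing between libraries of different groups. Correlations of same-numbered libraries' deviations ran from -0.0929 to 0.233 (median 0.0125). Those of libraries with unlike numbers ran from -0.22 to 0.121 (median -0.00237). The labels state no shared source, and 12 of 18 libraries have another name in the file's header than in the title. The numbers, which follow the titles, were not taken to pair libraries.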

Additional observations from a re-analysis of the deposited data

How the results depend on the processing

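The count of members called moved with the processing. Between primary ages it was 1 as reported, 0 with a pseudocount of 0.1, and 2 (Eif1b and Eif3b) with no scaling, quantile normalization, voom, array weights, only the groups compared or the broad libraries left out; with no filter it was 1, Eif3b in place of Eif1b. On soft gels between ages it was 0 with a pseudocount of 0.1 or no filter, and 2 (Eif6 and Eef1a1) with voom. On stiff gels between ages it was 1 with a pseudocount of 0.1 (Eif4ebp2) or without the broad libraries (Eif2b1). For aged gels against aged primary cells it was 0 with a pseudocount of 0.1, no scaling, the replicate block and only the groups compared. Leaving out 1 library gave 0 to 2 members between primary ages, 0 to 1 on soft and 0 to 2 on stiff gels between ages, 0 to 1 between gels in aged cells, and 0 to 1 for aged gels against primary cells, and 0 in the other 4 comparisons. Beside calls named with their gene above, this added Eif1 between ages on stiff gels without aged stiff replicate 3 (limma, adjusted p = 0.0448), Eif6 between gels in aged cells without aged stiff replicate 1 (0.0473) and Eif1b on aged gels without aged soft replicate 3 (0.0442). The cause of these changes was not tested. The difference of Eef1a1 between neonate gels and primary cells was -0.23 with no scaling, against 0.91. In the paired fit, with the replicate number as a block, the call of Eif3b on aged gels was lost (limma, adjusted p = 0.0510), and no other count of members changed; 10 of 18 libraries correlated best with their own number. Depth limits what can be seen: 40 of the 61 genes had a mean under 5 read pairs per library, so missing calls do not show equal levels.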
